A study of Homo sapiens with 6 samples.

Results

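Integrins and laminins were examined in T24 cells, an established human bladder cancer cell line, after knockdown of UBC9. The genes were taken by symbol: 24 integrin genes (16 alpha and 8 beta chains) and 10 laminin genes, 34 of the 58174 genes listed in each sample. T24 cells had been infected with a lentiviral pLKO.1 vector carrying an shRNA against UBC9 (shRNA-UBC9) or a scrambled shRNA (shRNA-NC), and both lines had been selected with puromycin. Each group had 3 samples, sequenced as polyadenylated RNA after TruSeq library preparation, and the comparison of shRNA-UBC9 with shRNA-NC asks which transcripts change when UBC9 is lowered. The knockdown rests on 1 shRNA, and nothing says that the samples of a group came from separate cultures, so p-values measure only the spread between these samples, which may be technical. Levels are RPKM, reads scaled to the length of the gene and to the mapped reads of the library. They can be compared between genes as far as the gene lengths used hold, and the annotation release behind these lengths is not given.

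Integrins are pairs of 1 alpha and 1 beta chain in the cell membrane that hold the cell to its matrix and connect it to the actin or keratin cytoskeleton inside. Each pair has its own ligands, such as collagen, fibronectin, vitronectin or laminin. Laminins are cross-shaped proteins of 1 alpha, 1 beta and 1 gamma chain that form the sheet of the basement membrane, on which the urothelium rests. UBC9 is the enzyme that passes SUMO, a small ubiquitin-like protein, to its targets.

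Estimated from the size of the value that 1 read gives, the libraries held between 28.2 M and 36.1 M mapped reads, and the groups overlapped in depth. Of the epithelial markers, KRT7, KRT8, KRT18 and KRT19 were expressed and fell, while CDH1 and KRT5 were at 0 or no more than 0.00449 RPKM. EPCAM, also epithelial, was at 0.412, 0.986 and 0.575 RPKM in shRNA-NC and at 2.51, 1.27 and 0.732 RPKM in shRNA-UBC9 and did not pass the test described below (log2 fold change 0.996, limma adjusted p = 0.0984). Of the urothelial markers, uroplakins reached at most 0.125 RPKM, and GATA3 and PPARG, which were expressed, fell. A set of 26 genes, haemoglobin and muscle and blood cell genes such as HBB, CKM and CD3E among them, was above 0.1 RPKM in 4 libraries and at 0 in shRNA-NC replicate 1 and shRNA-UBC9 replicate 3, against 0 to 6 genes for any other pair of libraries. These trace transcripts divide both groups, so the fold changes of the tested integrin and laminin genes were also computed within the 4 libraries that hold them and within the 2 that do not.

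In shRNA-NC the leading members were ITGB1 with 212 ± 21.9 RPKM (mean ± SD, n = 3), ITGA3 with 102 ± 17.3, LAMB3 with 67.5 ± 14.4, LAMC1 with 57.0 ± 3.12, ITGA6 with 54.0 ± 4.79, LAMA5 with 45.4 ± 8.12 and LAMB1 with 40.8 ± 5.02 RPKM. LAMB3, LAMC1 and ITGA6, next to each other in this order, did not differ beyond their spread. After the knockdown LAMB3 stood first with 254 ± 15.3 RPKM, level within the spread with ITGB1 at 244 ± 15.4 RPKM, and ITGA3 followed at 103 ± 11.4 RPKM. ITGB3 moved from place 13 to place 8 and LAMB1 from place 7 to place 13 of the 34. The summed integrin RPKM was 467 ± 46.0 in shRNA-NC and 553 ± 37.2 in shRNA-UBC9, with ranges that overlapped (420 to 511 and 511 to 575). The summed laminin RPKM was 235 ± 22.9 and 371 ± 19.7, with ranges apart (212 to 258 and 355 to 393). Without LAMB3 the laminin sum went the other way, from 168 ± 11.6 to 117 ± 9.92 RPKM, with ranges of 154 to 174 and 105 to 123 (n = 3 each).

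**Figure D1:**
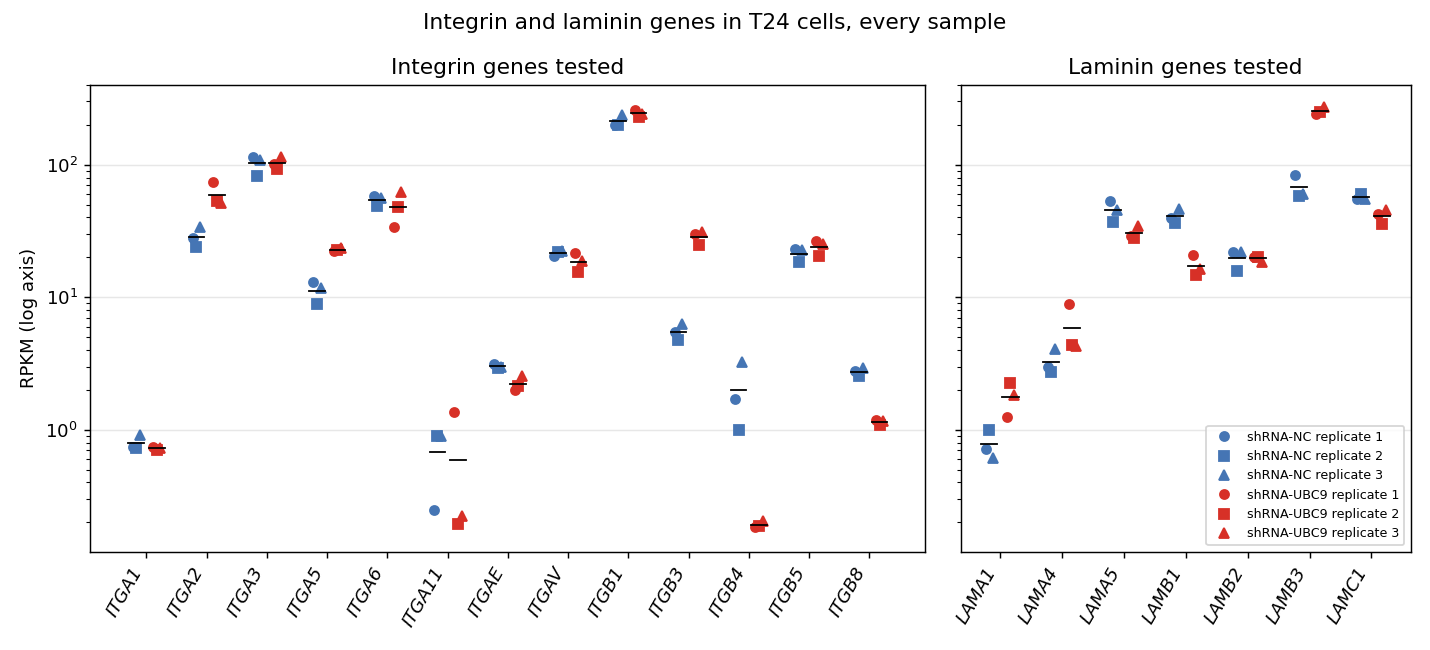
RPKM (log axis) of the 20 tested integrin and laminin genes in each of the 6 samples, with shRNA-NC in blue, shRNA-UBC9 in red and a bar at each group mean. ITGB3 and LAMB3 sit apart upward and ITGB4, ITGB8 and LAMB1 apart downward, while ITGA11 scatters within both groups.

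A gene was tested where it reached 0.5 RPKM in at least 3 of the 6 samples, and it is said to have risen or fallen where limma on log2(RPKM + 0.1) gave an adjusted p below 0.05 over all 12428 tested genes. By this filter 20 of the 34 genes were tested (13 integrins and 7 laminins), and 14 were under it. Of the 20, 5 rose, where 18.8% of all tested genes did, and 6 fell, where 18.0% did. DEGs, which also had an absolute log2 fold change over 1, made up 5 of the 20 upward and 3 downward, against 5.20% and 2.70% of all tested genes. The median log2 fold change was -0.06 over the 20 genes, -0.11 over the 13 integrins and 0.00 over the 7 laminins, beside 0.00 over all tested genes. ITGA2, ITGA5 and ITGB3 rose among the integrins, and LAMA1 and LAMB3 among the laminins. ITGAE, ITGB4 and ITGB8 fell among the integrins, and LAMA5, LAMB1 and LAMC1 among the laminins. The remaining 9 tested genes did not pass the test.

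**Figure D2:**
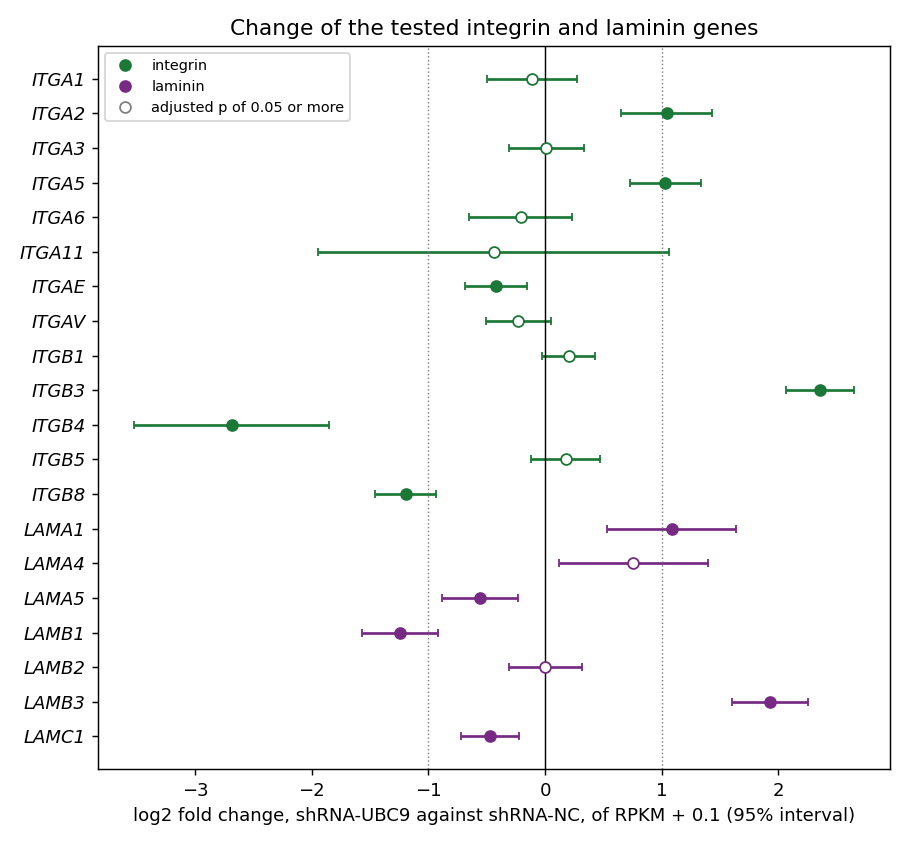
log2 fold change of RPKM + 0.1, shRNA-UBC9 against shRNA-NC, for the 20 tested integrin and laminin genes, with 95% intervals from limma and dotted lines at the DEG threshold of 1. Filled points have an adjusted p below 0.05: 5 lie to the right of 0 and 6 to the left.

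Among the beta chains, ITGB3 rose and ITGB4 and ITGB8 fell, while the abundant ITGB1 did not pass the test. ITGB3 (chr17:47253827-47313743, plus strand, GRCh38) encodes the chain that pairs with ITGAV to form a receptor for vitronectin and other ligands with the RGD motif. It was at 5.47, 4.78 and 6.27 RPKM in shRNA-NC and at 29.8, 24.8 and 31.2 RPKM in shRNA-UBC9. The groups lay far apart, and the mean was 5.20 times higher after the knockdown (log2 fold change 2.36, SE 0.13, limma adjusted p = 1.62e-05). Its exons overlap those of a second annotated gene of the same strand, ENSG00000259753, and reads of the pair cannot be told apart. ITGB3 went from 2.25% ± 0.139 to 9.59% ± 0.701 of the summed beta chain RPKM (n = 3 each), and ITGB1 from 87.0% ± 1.21 to 81.8% ± 1.16.

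ITGB4 (chr17:75721328-75757818, plus strand) encodes the chain that pairs only with ITGA6 and anchors keratin filaments at hemidesmosomes. It was at 1.71, 0.999 and 3.26 RPKM in shRNA-NC and at 0.185, 0.189 and 0.204 RPKM in shRNA-UBC9. Behind these values stand 346, 234 and 745 reads in shRNA-NC and 45, 45 and 39 reads in shRNA-UBC9, recovered from the steps of the RPKM values. The shRNA-NC samples differed among themselves, and all lay above the shRNA-UBC9 samples. The log2 fold change was -2.69 (SE 0.36, limma adjusted p = 0.00112). ITGB4 passed the filter only through the group in which it is high, and its fold change was -1.26 with a pseudocount of 1 and -3.24 after quantile normalization.

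ITGB8 (chr7:20330702-20415754, plus strand) encodes another partner of ITGAV, known for releasing TGF-beta from its latent form. Its RPKM was 2.79, 2.55 and 2.90 in shRNA-NC and 1.18, 1.08 and 1.16 in shRNA-UBC9, with little spread inside either group. It fell by 1.20 on the log2 scale (SE 0.11, limma adjusted p = 0.000249). With a pseudocount of 1 the fall was 0.81, under the DEG threshold, with the call kept.

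ITGB1, the shared partner of most alpha chains, was at 199, 201 and 238 RPKM in shRNA-NC and at 259, 229 and 243 RPKM in shRNA-UBC9. The groups overlapped, and the log2 fold change was 0.20 with a 95% interval of -0.03 to 0.43 (limma adjusted p = 0.146). ITGB5, a further partner of ITGAV, was at 23.0, 18.4 and 22.6 RPKM against 26.5, 20.5 and 25.4 RPKM (0.18, interval -0.12 to 0.47, limma adjusted p = 0.317). The intervals of both exclude a change of 1 on the log2 scale. ITGB2 and ITGB7, the beta chains of leukocytes, and ITGB6, a chain of epithelia, were under the filter and are described with the other low genes.

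Among the alpha chains, the collagen receptor chain ITGA2 and the fibronectin receptor chain ITGA5 rose by similar amounts. ITGA2 (chr5:52989340-53094779, plus strand) was at 28.1, 23.9 and 33.8 RPKM in shRNA-NC and at 73.9, 52.8 and 51.1 RPKM in shRNA-UBC9. Every shRNA-UBC9 sample was above every shRNA-NC sample, with replicate 1 the highest, and the log2 fold change was 1.04 (SE 0.17, limma adjusted p = 0.00254). ITGA2 made up 12.8% ± 1.23 of the summed alpha chain RPKM in shRNA-NC and 23.3% ± 5.07 in shRNA-UBC9 (n = 3 each). ITGA5 (chr12:54395261-54419266, minus strand) was at 12.9, 8.97 and 11.8 RPKM in shRNA-NC and at 22.3, 22.6 and 23.4 RPKM in shRNA-UBC9. Its shRNA-UBC9 samples were nearly level and above all shRNA-NC samples (log2 fold change 1.03, SE 0.13, limma adjusted p = 0.000865). Both changes are close to the DEG threshold of 1. The change of ITGA5 was 0.97 with a pseudocount of 1, 0.996 after quantile normalization and 0.99 after median scaling, under the threshold. Without shRNA-NC replicate 2 the changes were 0.92 for ITGA2 and 0.88 for ITGA5, and without shRNA-UBC9 replicate 1 that of ITGA2 was 0.87, each still with an adjusted p below 0.05.

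The other collagen receptor chains gave no call. ITGA1 was at 0.738, 0.728 and 0.918 RPKM in shRNA-NC and at 0.744, 0.700 and 0.727 RPKM in shRNA-UBC9 (limma adjusted p = 0.629). Exons of ITGA1 overlap those of PELO on the same strand, a gene at 8.11 to 8.68 RPKM in shRNA-NC and 13.5 to 13.8 in shRNA-UBC9, and the part of shared reads in these values was not tested. ITGA11 was at 0.25, 0.901 and 0.898 RPKM in shRNA-NC and at 1.37, 0.193 and 0.225 RPKM in shRNA-UBC9, so the samples split within both groups. The interval of its log2 fold change, -1.95 to 1.06, was the widest among the 20 genes (limma adjusted p = 0.628). ITGA10, under the filter, ranged from 0.352 to 0.753 RPKM over the 6 samples.

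ITGA3 and ITGA6, the chains of the main laminin receptors of epithelia, were abundant and did not pass the test. ITGA3 was at 115, 82.8 and 109 RPKM in shRNA-NC and at 101, 92.2 and 115 RPKM in shRNA-UBC9 (log2 fold change 0.01, interval -0.31 to 0.33, limma adjusted p = 0.959). ITGA6 was at 57.7, 48.6 and 55.7 RPKM in shRNA-NC and at 34.2, 47.9 and 61.8 RPKM in shRNA-UBC9 (log2 fold change -0.21, interval -0.65 to 0.24, limma adjusted p = 0.428). In shRNA-UBC9 the samples of ITGA6 spread on both sides of the shRNA-NC range. The ratio of ITGA6 to ITGB4, the partners in the hemidesmosome, was 33.1 ± 15.8 in shRNA-NC and 247 ± 58.9 in shRNA-UBC9 (n = 3 each). Its ranges did not overlap. As ITGA6 did not pass the test, this ratio restates the fall of ITGB4 and is no separate result. ITGB4 passed the filter only through shRNA-NC, the group in which it is high.

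ITGAV, the alpha chain shared by ITGB3, ITGB5 and ITGB8, was at 20.3, 22.1 and 22.4 RPKM in shRNA-NC and at 21.4, 15.6 and 18.7 RPKM in shRNA-UBC9 (log2 fold change -0.23, interval -0.51 to 0.05, limma adjusted p = 0.175). Without shRNA-UBC9 replicate 1, the highest of its group, the adjusted p was 0.0415. Its possible partners moved apart around it: the ratio of ITGAV to ITGB3 was 3.97 ± 0.564 in shRNA-NC and 0.648 ± 0.0631 in shRNA-UBC9, and the ratio of ITGAV to ITGB8 was 7.90 ± 0.709 and 16.2 ± 1.87 (n = 3 each). In RPKM, ITGB3 thus exceeded ITGAV in every shRNA-UBC9 sample and in none of the shRNA-NC samples. In reads, ITGB3 stayed below ITGAV in shRNA-UBC9 too, with 9450, 7692 and 7748 against 12694, 9020 and 8656. The order of the 2 genes therefore depends on the gene lengths behind RPKM, and on the reads shared with ENSG00000259753.

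ITGAE, which on lymphocytes pairs with ITGB7 to bind E-cadherin, was at 3.14, 2.91 and 2.96 RPKM in shRNA-NC and at 2.01, 2.14 and 2.54 RPKM in shRNA-UBC9. It fell by 0.42 on the log2 scale (SE 0.12, limma adjusted p = 0.0243), less than the DEG threshold. The call was lost when any of shRNA-NC replicate 1 or 3 or shRNA-UBC9 replicate 1 or 2 was left out, with adjusted p from 0.0577 to 0.0792. Its usual partner ITGB7 was under the filter, with no more than 6 reads in a sample. The exons of ITGAE overlap those of HASPIN on the other strand, and as no source states that reads were counted by strand, reads of such pairs cannot be told apart.

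The laminins changed most in their beta chains, where LAMB3 rose and LAMB1 fell. LAMB3 (chr1:209614870-209652425, minus strand) encodes a chain that is joined with LAMA3 in the laminin under hemidesmosomes. It was at 84.2, 58.2 and 60.2 RPKM in shRNA-NC and at 241, 249 and 271 RPKM in shRNA-UBC9. The lowest shRNA-UBC9 sample was well above the highest shRNA-NC sample, and the log2 fold change was 1.93 (SE 0.14, limma adjusted p = 7e-05). LAMB1 (chr7:107923799-108003213, minus strand), a chain of most other laminins, was at 39.6, 36.4 and 46.3 RPKM in shRNA-NC and at 20.7, 14.7 and 16.4 RPKM in shRNA-UBC9. It fell by 1.24 on the log2 scale in groups that did not overlap (SE 0.14, limma adjusted p = 0.000531). Exons of LAMB1 overlap those of DLD on the other strand, a gene at 14.0 to 15.9 RPKM in shRNA-NC and 15.4 to 16.4 in shRNA-UBC9. LAMB2, the third beta chain, was at 21.9, 15.7 and 22.0 RPKM against 20.2, 20.1 and 18.5 RPKM (log2 fold change 0.00, interval -0.31 to 0.31, limma adjusted p = 0.999). LAMB3 thus went from 52.5% ± 5.47 to 87.3% ± 1.60 of the summed laminin beta RPKM, LAMB1 from 32.1% ± 4.47 to 5.95% ± 1.20, and the ratio of LAMB3 to LAMB1 from 1.67 ± 0.416 to 15.1 ± 2.96 (n = 3 each).

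LAMA3, the alpha chain joined with LAMB3, was under the filter, at 0.429, 0.485 and 0.433 RPKM in shRNA-NC and at 0.568, 0.395 and 0.343 RPKM in shRNA-UBC9, with groups that overlapped. LAMB3 transcripts exceeded those of LAMA3 per length by 152 ± 39.7 times in shRNA-NC and by 615 ± 183 times in shRNA-UBC9 (n = 3 each).

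LAMC1 (chr1:183023420-183145592, plus strand), the gamma chain of most laminins, was at 54.9, 60.6 and 55.5 RPKM in shRNA-NC and at 42.5, 35.5 and 45.8 RPKM in shRNA-UBC9. It fell by 0.47 on the log2 scale (SE 0.11, limma adjusted p = 0.0111), in groups that did not overlap. LAMC3 had between 0 and 3 reads in a sample.

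LAMA5 (chr20:62307955-62367312, minus strand) was the leading laminin alpha chain, at 53.5, 37.3 and 45.5 RPKM in shRNA-NC and at 29.1, 28.1 and 34.6 RPKM in shRNA-UBC9. It fell by 0.56 on the log2 scale (SE 0.14, limma adjusted p = 0.0171), less than the DEG threshold, and the adjusted p was 0.0534 without shRNA-NC replicate 1, 0.0567 without shRNA-NC replicate 3 and 0.0580 without shRNA-UBC9 replicate 2. Exons of LAMA5 overlap those of ADRM1 on the other strand, a gene at 82.5 to 96.4 RPKM in shRNA-NC and 103 to 119 in shRNA-UBC9. LAMA1 (chr18:6941742-7117797, minus strand), a chain known best from the embryo, was low, at 0.711, 0.999 and 0.614 RPKM in shRNA-NC and at 1.25, 2.24 and 1.84 RPKM in shRNA-UBC9. These values rest on 330 to 549 reads in shRNA-NC and 716 to 1250 in shRNA-UBC9. LAMA1 rose by 1.09 on the log2 scale (SE 0.24, limma adjusted p = 0.00955), or by 0.63 with a pseudocount of 1, and within the 4 libraries with trace transcripts alone the adjusted p was 0.0839.

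LAMA4, a chain of vessel and muscle laminins, was at 2.96, 2.73 and 4.10 RPKM in shRNA-NC and at 8.85, 4.33 and 4.31 RPKM in shRNA-UBC9. The groups did not overlap, but shRNA-UBC9 replicate 1 stood well above the others, and the log2 fold change of 0.76 did not pass (interval 0.12 to 1.39, limma adjusted p = 0.0639). Without shRNA-UBC9 replicate 3 the adjusted p was 0.0401. LAMA2 had 16 to 56 reads in a sample and was not tested. LAMA5 went from 90.8% ± 1.79 to 79.0% ± 5.61 of the summed laminin alpha RPKM (n = 3 each).

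**Figure D3:**
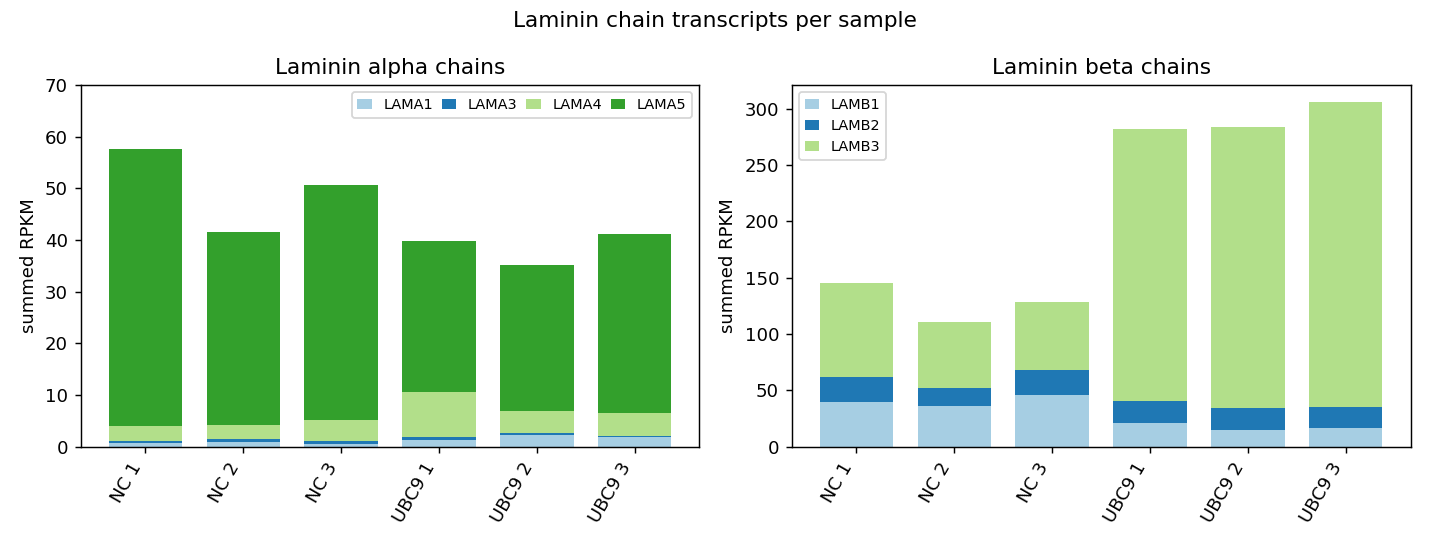
Summed RPKM of laminin alpha and beta chains in each sample (NC for shRNA-NC and UBC9 for shRNA-UBC9), stacked by gene. LAMA2, near 0, is left out. LAMB3 makes up 52.5% of beta chain RPKM on average in shRNA-NC and 87.3% in shRNA-UBC9.

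The promoters of ITGA5 and LAMB3, which rose, are shown because each holds the letters of the AP-1 motif, TGANTCA, close to the gene start, and that of LAMB1, the beta chain that fell, for comparison. The windows run from 250 bases before to 50 bases after the RefSeq gene start (GRCh38.p14), 5′ to 3′ on the minus strand of the gene. Both strands were searched for TGANTCA and for GGAATG, a TEAD motif, and matches are in capitals. The windows are chr12:54419217-54419516 for ITGA5, chr1:209651325-209651624 for the third of the LAMB3 starts and chr7:108003112-108003411 for LAMB1.
ITGA5: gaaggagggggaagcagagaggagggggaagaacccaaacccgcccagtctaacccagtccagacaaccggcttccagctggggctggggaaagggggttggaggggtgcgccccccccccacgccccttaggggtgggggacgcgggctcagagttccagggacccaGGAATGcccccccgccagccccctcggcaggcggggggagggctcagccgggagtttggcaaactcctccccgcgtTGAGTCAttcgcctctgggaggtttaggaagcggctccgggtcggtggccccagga
LAMB3: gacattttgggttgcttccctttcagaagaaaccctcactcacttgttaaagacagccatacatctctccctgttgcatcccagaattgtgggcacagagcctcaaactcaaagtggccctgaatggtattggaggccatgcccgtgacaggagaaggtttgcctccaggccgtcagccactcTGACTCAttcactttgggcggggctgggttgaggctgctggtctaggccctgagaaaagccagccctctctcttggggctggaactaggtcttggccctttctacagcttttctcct
LAMB1: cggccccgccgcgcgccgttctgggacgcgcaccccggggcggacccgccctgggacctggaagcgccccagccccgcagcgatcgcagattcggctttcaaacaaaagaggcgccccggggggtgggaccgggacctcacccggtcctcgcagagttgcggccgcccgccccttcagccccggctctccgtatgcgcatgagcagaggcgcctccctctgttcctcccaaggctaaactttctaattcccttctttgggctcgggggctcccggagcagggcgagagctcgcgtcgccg
In ITGA5 the AP-1 letters TGAGTCA begin 6 bases and the TEAD letters 82 bases before the start, and in LAMB3 the AP-1 letters TGACTCA begin 67 bases before it. The windows of the other LAMB3 starts in the table hold neither motif. The LAMB1 window holds neither. Of the 34 genes, 24 matched a RefSeq promoter, in 31 windows, and ITGB3, ITGB4 and LAMA1 were among those that did not. The window of ITGA2, which also rose, holds neither motif. Genes with TGANTCA were ITGA5, LAMB3 and LAMA3, and those with GGAATG were ITGA5, ITGA10, ITGB1 and LAMA2. LAMA3, which was under the filter with groups that overlapped, held 2 matches of TGANTCA, 125 and 69 bases before its start. Over all 35116 promoters of the table, 7.71% held TGANTCA and 14.03% held GGAATG. A match of letters is a description of the window, not a site of binding.

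The reads of the 14 genes under the filter were recovered as whole numbers. LAMA3 had 131 to 277 reads in a sample and ITGA10 had 65 to 161, and the others had at most 83. ITGA8 had 0 reads in all 6 samples, which allows at most 0.0114 to 0.0145 RPKM per sample (3 reads, counting error only). ITGA9 had no more than 1 read in a sample, ITGAM 1 to 7 and ITGA7 13 to 25. ITGAX, ITGB6 and ITGB7 were higher in every shRNA-UBC9 sample than in any of shRNA-NC, beside 9.66% of all genes under the filter and above 0 in a sample. ITGA9 was lower in RPKM, beside 6.00%. Its reads were 1, 1 and 1 in shRNA-NC and 1, 0 and 0 in shRNA-UBC9, so in reads the groups overlapped. ITGA4, a receptor chain for VCAM-1 and fibronectin, had 0, 24 and 18 reads in shRNA-NC and 18, 13 and 1 reads in shRNA-UBC9. ITGAL, a chain of the leukocyte receptor for ICAM-1, had 4, 22 and 16 reads and 26, 12 and 2 reads. Both were lowest in shRNA-NC replicate 1 and shRNA-UBC9 replicate 3, the libraries without the trace transcripts. ITGB2, the partner of ITGAL, had 22, 83 and 29 reads in shRNA-NC and 28, 26 and 23 in shRNA-UBC9, so it was present in those libraries too. PTPRC and CD3E, which mark leukocytes, were at 0 in the same pair of libraries and at no more than 0.185 RPKM in the others. The summed RPKM of the leukocyte markers was 2.50 to 4.66 in shRNA-NC and 20.4 to 49.95 in shRNA-UBC9, with most of it from CD68, a lysosomal protein that many cells make, which rose by 3.52 on the log2 scale. The 4 endothelial markers summed to 2.64 to 3.26 and 0.338 to 1.07 RPKM, mostly from CDH5, which fell by 2.20 on the log2 scale, with PECAM1, VWF and KDR at no more than 0.0707 RPKM. The 5 fibroblast markers summed to 0.978 to 1.32 and 0.882 to 1.27 RPKM. Of these, COL1A1 rose by 0.95 and PDGFRB fell by 1.48 on the log2 scale. COL1A2, DCN and LUM were at no more than 0.0780 RPKM. COL1A1 passed the filter through shRNA-UBC9, and CDH5 and PDGFRB through shRNA-NC, each the group in which the gene is high. The part of other cells in the low integrin genes was not tested. In RNA from whole cultures, fewer cells with a transcript and less of it per cell cannot be told apart.

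Within the 4 libraries with trace transcripts and within the 2 without them, each of the 11 genes that rose or fell kept its direction. ITGB3 had a log2 fold change of 2.29 in the former and 2.49 in the latter, LAMB3 of 2.05 and 1.69, ITGB4 of -2.74 and -2.58, ITGB8 of -1.19 and -1.20, and LAMB1 of -1.23 and -1.27. ITGA2 gave 1.14 and 0.86, ITGA5 gave 1.12 and 0.85, and LAMA1 gave 1.0 and 1.25. The smaller changes were -0.58 and -0.26 for LAMC1, -0.52 and -0.63 for LAMA5, and -0.48 and -0.29 for ITGAE. The values of the 2 libraries compare 1 sample with 1 and carry no test.

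Genes that work with integrins and laminins were counted over 5 lists of 72 genes, of which 70 were found and 60 tested. Of these 60, 13 rose and 18 fell, against 18.8% and 18.0% of all tested genes. DEGs numbered 6 upward and 3 downward, against 5.20% and 2.70% of all tested genes. Among 26 tested adaptors and kinases, which link the integrin tail to actin and to signalling, 5 rose and 6 fell. The largest changes were those of FERMT3, a kindlin that activates integrins (0.459, 0.283 and 0.569 RPKM against 2.42, 2.28 and 1.91 RPKM, log2 fold change 2.13), and of PTK2B, a kinase related to FAK (1.10, 1.39 and 0.980 RPKM against 5.45, 4.86 and 4.18 RPKM, 1.98). TNS1, a tensin, rose by 1.06, and PARVA, a parvin bound to ILK, fell by 0.69, all on the log2 scale. FERMT3 and TNS1 also passed the filter through shRNA-UBC9, the group in which they are high. Among 6 tetraspanins, membrane proteins that hold integrins in groups, CD9 (0.86), TSPAN4 (0.39) and CD81 (0.30) rose and CD82 (-0.67) fell. For this list and for the adaptors and kinases, the shares of all tested genes are again 18.8% and 18.0%.

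Of the 8 hemidesmosome and laminin-binding partners, 1 rose and 5 fell, beside 18.8% and 18.0% of all tested genes, with a median log2 fold change of -0.56. The gene that rose was COL17A1, a collagen of the hemidesmosome, at 0.631, 0.400 and 0.543 RPKM in shRNA-NC and at 2.20, 2.31 and 2.33 RPKM in shRNA-UBC9 (log2 fold change 1.95). SDC1, a heparan sulfate proteoglycan (-1.01), DST, which encodes a linker of keratin filaments (-0.91), and BCAM, a receptor for LAMA5 (-0.82), fell. COL17A1 reached 0.5 RPKM in all shRNA-UBC9 samples but not in all shRNA-NC samples, so it passed the filter through the group in which it is high. Of 10 tested basement membrane partners, beside the same shares of all tested genes, 1 rose, AGRN (0.41), and 3 fell, the collagen COL18A1 (-0.89), FBLN1 (-0.68) and NID1, which bridges laminin and collagen (-0.64).

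Of 10 tested other integrin ligands, 3 rose and 3 fell (18.8% and 18.0% of all tested genes), and they held the largest changes of the 5 lists. TNC, a matrix protein, was at 0.535, 0.752 and 0.567 RPKM in shRNA-NC and at 6.30, 9.20 and 9.38 RPKM in shRNA-UBC9 (log2 fold change 3.54, SE 0.18, limma adjusted p = 1.55e-05). THBS1, thrombospondin, was at 53.8, 64.0 and 55.9 RPKM in shRNA-NC and at 7.04, 4.62 and 6.98 RPKM in shRNA-UBC9 (log2 fold change -3.22). ICAM1, the counter-receptor of leukocyte integrins, rose by 2.56 and FBN1, fibrillin, fell by 1.06 on the log2 scale. FN1, the ligand of the ITGA5 receptor, had an adjusted p of 0.519 in limma, with 292 to 838 RPKM in shRNA-UBC9 around the shRNA-NC range of 483 to 718.

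**Figure D4:**
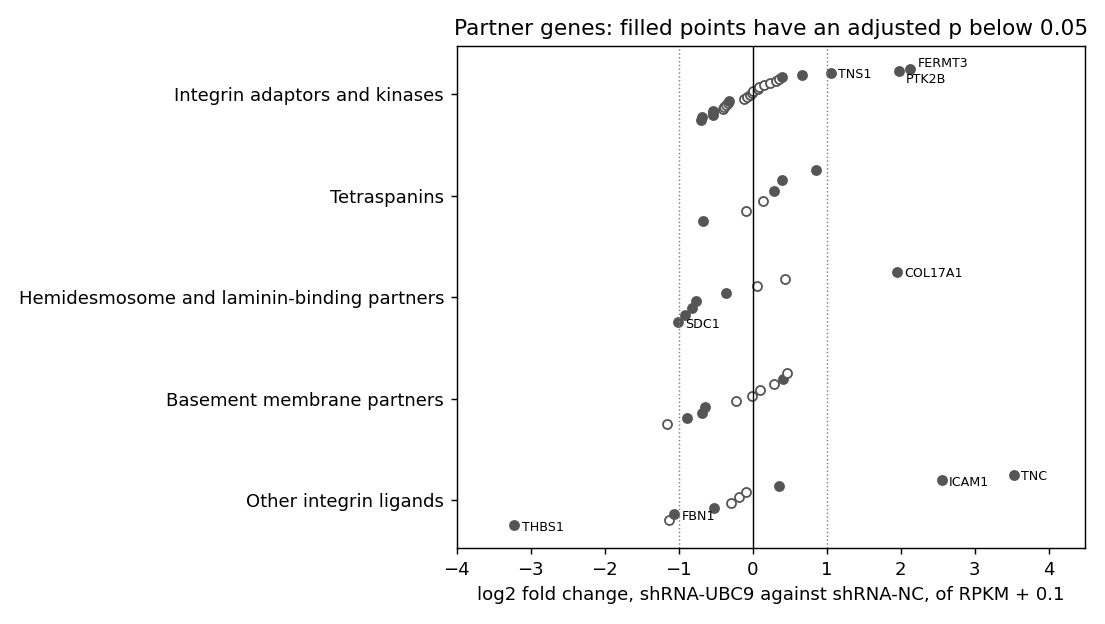
log2 fold change of RPKM + 0.1, shRNA-UBC9 against shRNA-NC, of the 60 tested partner genes in 5 lists, with dotted lines at the DEG threshold of 1. Filled points have an adjusted p below 0.05 (13 higher, 18 lower), and the 9 DEGs are named.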

How the data were processed

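After trimming, the authors mapped the reads to GRCh38 (hg38 in the submitters' processing notes) with the CLC Biomedical Genomics Workbench at default settings, and deposited RPKM values per gene and sample. The annotation release, the strand setting and the handling of multiply mapped reads are not given in the sources used here. Groups and replicates came from the sample labels. RPKM was taken to log2(RPKM + 0.1), genes with 0.5 RPKM or more in at least 3 of 6 samples were kept (12428 of 58174), and shRNA-UBC9 was compared with shRNA-NC in limma 3.58.1 (R 4.3.3, intensity trend, no covariate) with Benjamini-Hochberg adjustment over all tested genes. All adjusted p-values are from this fit unless a setting is named. An exact permutation test of 3 against 3 samples cannot give a p below 0.1. RPKM values of a gene are whole multiples of what 1 read is worth, which gave the depth (28.2 M to 36.1 M reads, from GENCODE 44 exon lengths) and, within 0.01 of a whole number, the reads of 33 of the 34 genes. For ITGB1 no read number was found.

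The members and lists were chosen with earlier results of these data known. All 34 members are named, and of each partner list at most the 4 called genes with the largest absolute log2 fold change. FN1, CDH1 and the marker genes come from the lists of partners and markers. PELO, ADRM1, DLD, ZNF740, HBB and CKM were named after their values were seen. HASPIN, which had no values under this symbol, was named for its exon overlap with ITGAE. Sequences are from RefSeq (GRCh38.p14) and gene positions from GENCODE 44. On simulated data, limma with both DEG thresholds found 97.4% of 200 genes given a log2 change of 2, and made 2 false calls among 12085 genes. Smaller changes, and calls by adjusted p alone, were not checked in this way. The alternatives were pseudocounts of 1 and 0.01, RPKM of at least 1 in every sample, no filter, a replicate block, a fit without the trend, scaling by quantiles or by medians, unadjusted p, and each replicate left out. The trace transcripts as a covariate, and the 4 libraries that hold them alone, were added after seeing the data. Other software was scipy 1.17.1, pandas 2.3.3, numpy 2.4.6 and matplotlib 3.10.9 under Python 3.11.15. Some results are not reported here.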

Additional observations from a re-analysis of the deposited data

Results flagged for a closer look

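Of the genes under the expression filter, which enter no test, 3 integrin genes had a higher RPKM in every shRNA-UBC9 sample than in any shRNA-NC sample, a pattern of 9.66% of the 10468 genes under the filter and above 0 in a sample. ITGAX, an alpha chain of myeloid cells, was at 0.0142, 0.00408 and 0.0376 RPKM in shRNA-NC (3, 1 and 9 reads) and at 0.0666, 0.10 and 0.0651 RPKM in shRNA-UBC9 (17, 25 and 13 reads), with a shRNA-UBC9 mean of 0.0774 RPKM. ITGB6, a beta chain of epithelia that pairs with ITGAV, was at 0.0316, 0.0273 and 0.0651 RPKM (6, 6 and 14 reads) and at 0.148, 0.152 and 0.0725 RPKM (34, 34 and 13 reads), with a mean of 0.124 RPKM. ITGB7, a leukocyte beta chain, was at 0, 0.0129 and 0.00659 RPKM (0, 2 and 1 reads) and at 0.0309, 0.0190 and 0.0474 RPKM (5, 3 and 6 reads), with a mean of 0.0325 RPKM. Exons of ITGB6 overlap those of a second annotated gene of the same strand, ENSG00000285155, and reads of the pair cannot be told apart. Exons of ITGB7 overlap those of ZNF740 on the other strand, a gene at 4.51 to 5.14 RPKM in shRNA-NC and 3.55 to 4.07 in shRNA-UBC9. The differences of these 3 integrin genes were not tested, and at these depths a few reads decide them.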

How the results depend on the processing

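The 11 genes that rose or fell kept their direction under every alternative that gave a value, and 8 of them kept their call throughout. The exceptions were ITGAE, LAMA5 and LAMA1. ITGAE was also lost with no filter (adjusted p = 0.0559) and with the replicate block (0.0615). With shRNA-NC replicate 1, 2 or 3 left out, ITGB4 was under the filter and had no value. Leaving out 1 replicate at a time, the integrins that fell numbered 1 to 3 (1 without shRNA-NC replicate 1 or 3), integrin DEGs upward 1 to 3 (1 without shRNA-NC replicate 2) and downward 1 to 2 (1 without shRNA-NC replicate 1, 2 or 3), laminins that rose 2 to 3, laminin DEGs upward 1 to 2 (1 without shRNA-NC replicate 3 or shRNA-UBC9 replicate 2) and partner genes that rose 8 to 12 (8 without shRNA-UBC9 replicate 3). Integrin DEGs downward numbered 1 with a pseudocount of 1 and with RPKM of at least 1 in every sample. Laminins that rose numbered 1 with RPKM of at least 1 in every sample and in the 4 libraries with trace transcripts, and laminin DEGs upward 1 under those settings, with a pseudocount of 1 and with quantile normalization. Partner genes that rose numbered 8 with RPKM of at least 1 in every sample and 8 with the replicate block. Directions turned only in genes without a call: ITGA3 (-0.060 with quantile normalization, -0.032 with median scaling and -0.13 to 0.10 with 1 replicate left out), ITGA6 (-0.41 to 0.015 with 1 replicate left out) and LAMB2 (-0.16 to 0.082 with 1 replicate left out and 0.12 in the 4 libraries). The cause was not tested, beyond the smaller number of samples or genes in some settings. Same-numbered samples did not deviate together (correlations -0.37, 0.07 and -0.17), so these values gave no sign of a pairing by number. With 3 samples in each group, they cannot show whether same-numbered samples were handled together. The largest correlation between the groups was 0.53, for shRNA-NC replicate 1 and shRNA-UBC9 replicate 3, the libraries without the trace transcripts. With the trace-transcript libraries as a covariate, 5063 genes were called in all. With the replicate block 3374 genes were called in all, against 4576 without it, and of the 20 genes it changed only the call of ITGAE. DEGs over all genes numbered 981, 552 with a pseudocount of 1. Genes at a few reads per sample are limited by depth, and changes near the filter by the pseudocount.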
